A study of Mus musculus with 10 samples.

Results

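The genes described here build the contractile and supporting cytoskeleton of smooth muscle cells and myofibroblasts, and they were followed in the left ventricle of mice after transverse aortic banding (TAB) or a sham operation. The members were all probes whose gene symbol was Acta2, Tagln, Tagln2, Cnn1, Cnn2, Myl9, Myh11, Tpm4, Vim or Actn1. These 10 genes, of the 19942 gene symbols on the array, were represented by 12 of its 26423 probes. Acta2 and Actn1 had 2 probes each, and the other 8 genes had 1.

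TAB constricts the aortic arch so that the left ventricle pumps against a raised pressure, and the study asked which genes take part as the heart enlarges. All mice were male C57BL/6J, 8 weeks old at surgery, and the labels name no other allele or agent in either group. The TAB group held 5 samples of total RNA from the left ventricle, taken after surgery on day 3, 5, 7, 14 or 28, and the sham group held 5 samples from the same days. The day 14 TAB sample, which 1 of its labels dates to 15 days, was used as day 14. Each operation and day had 1 sample and, in the deposited data, 1 array, and the number of mice in a sample is not given. A ratio on a single day therefore had no replicate check. The tests over the days treated the 5 days as replicates, so that their p-values measured how far the ratios of single days spread. In the test of the average, a change of the TAB effect with time counted as part of this spread. The spread between mice was not measured.

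Smooth muscle cells of the vessel wall contract by sliding filaments of smooth muscle actin and smooth muscle myosin, which calponin, transgelin and tropomyosin coat and regulate. Fibroblasts of an injured or overloaded heart can turn into myofibroblasts, which build the same actin into stress fibres anchored by alpha-actinin and pull on the matrix they secrete. Many of these genes are controlled by serum response factor (SRF), which binds a DNA element called the CArG box and is switched on by myocardin in muscle and by the actin-sensing MRTF coactivators in other cells. Acta2, Tagln, Cnn1, Myl9 and Myh11 are used as markers of smooth muscle, Acta2 and Tagln also of myofibroblasts, whereas Tagln2, Cnn2, Tpm4, Actn1 and Vim are expressed in many cells outside muscle, leukocytes and endothelium among them. In whole ventricle, a change in the number of cells of a type and a change in RNA per cell cannot be told apart.

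Promoter sequences are shown for the members in which a CArG box was found, because this element links the genes to SRF. The search covered the RefSeq windows of GRCm38.p6 from 250 bases before to 50 bases after a start site, and 8 of the 10 members had a window, Tagln and Myh11 being without one. A full CArG box was taken as CC, 6 bases that are each A or T, and GG, which reads the same way on both strands, and a variant was allowed to have 1 of the 6 bases changed to G or C. In the lines below the boxes are in capitals and every sequence runs 5′ to 3′ on the strand of the gene.
Acta2, first box, chr19:34255438-34255467, minus strand: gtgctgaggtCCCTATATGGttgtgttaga
Acta2, second box, chr19:34255388-34255417, minus strand: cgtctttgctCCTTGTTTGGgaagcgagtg
Cnn2, chr10:79988514-79988583, plus strand: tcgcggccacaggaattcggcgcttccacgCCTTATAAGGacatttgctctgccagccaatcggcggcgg
Myl9, chr2:156775273-156775404, plus strand: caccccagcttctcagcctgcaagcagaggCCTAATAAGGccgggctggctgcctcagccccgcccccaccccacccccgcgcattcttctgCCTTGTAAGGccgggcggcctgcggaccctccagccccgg
Full boxes were found in 2 members, Cnn2 with its box 56 bases before the start site and Myl9 with its first box 161 bases before it. Of all 32851 promoter windows in the table, 1.63% held a full box. Acta2 held 2 boxes of the variant form, 84 and 34 bases before the start site, and Myl9 held 1 more of that form at 99 bases. With both forms counted, 3 of the 8 members and 9.98% of all windows held a box. Positions are counted from the start site of the table's window, which for Acta2 (chr19:34240336-34255585) and Myl9 (chr2:156775408-156781657) lies inside the gene as annotated. For Acta2 the boxes do too, so only they and their flanks are printed. A match in these windows describes the letters only, and the windows of Tagln2, Cnn1, Tpm4, Vim and Actn1 held neither form.

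The probes differed in how well they read their gene. The deposited flag, read as the scanner software commonly uses it, marks spots that were not found, and it was set for 40.2% to 47.3% of the spots on each array. The median raw intensity of an array lay between 34 and 57. The probe of Cnn1 (calponin 1) had raw intensities between −2 and 5 and was found on no array, and the same held for the second Acta2 probe, between −7 and 18. Both fell to the filter on low values, so that Cnn1 had no level here and 9 of the 10 genes were tested. The Tagln probe was found on 4 of the 5 TAB arrays and on no sham array, with raw intensities between 3 and 75, and its deposited detection p-values lay between 0.763 and 1 on all 10 arrays. The Acta2 probe that was used was found on all arrays, but its detection p-value exceeded 0.05 on 4 of them, 2 TAB and 2 sham. The other 8 probes were found on all 10 arrays, and their detection p-values stayed under 0.05 except on 3 sham arrays for the second Actn1 probe. Intensities of different probes were not compared with each other, since probes differ in how strongly they bind.

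**Figure D1:**
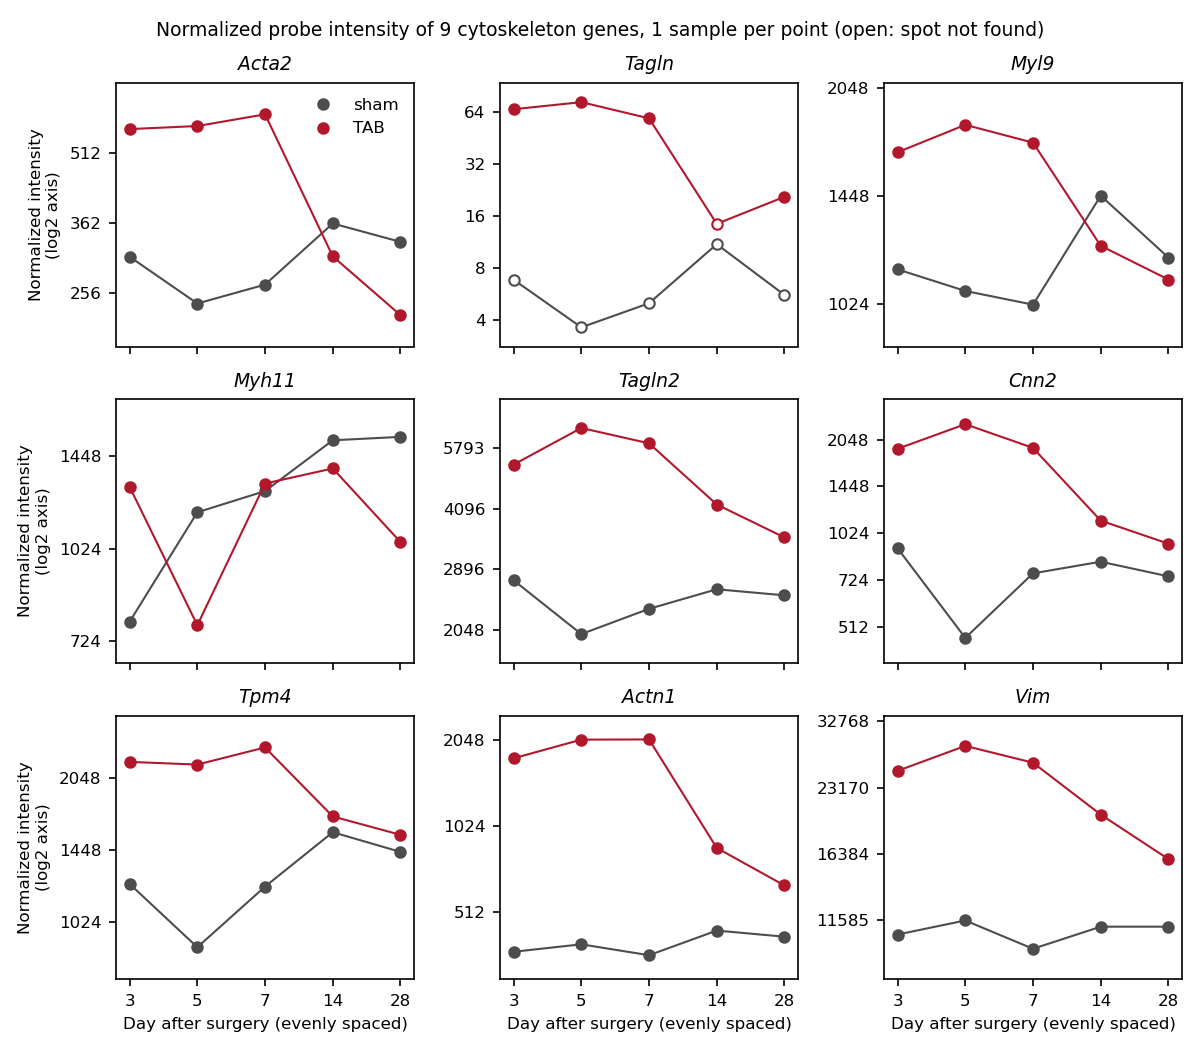
Normalized probe intensity (log2 axis, a separate scale in each panel) of the 9 tested genes against the day after surgery, with red points for TAB and grey points for sham, 1 sample per point, and open points where the spot was not found. For Actn1, Vim, Tagln2, Cnn2 and Tagln all 5 TAB points lie above all 5 sham points, whereas for Acta2 and Myl9 the lines cross between days 7 and 14.

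Vim and Actn1, the genes of the intermediate filament protein vimentin and of the crosslinker alpha-actinin 1, stood highest above the spread of the sham samples. The normalized intensity of Vim was 25280, 28808, 26382, 20111 and 15932 in the TAB samples of days 3, 5, 7, 14 and 28. In the sham samples it was 10742, 11559, 9969, 11191 and 11191 on the same days. The sham values stayed within a 1.16-fold range, and the lowest TAB value, that of day 28, lay above all of them. The Vim ratio of TAB over sham was 2.35-fold on day 3, reached 2.65-fold on day 7 and was 1.42-fold on day 28. Averaged over the days, Vim was 2.09-fold higher in TAB, a mean log2 ratio of 1.06 (SE 0.16, n = 5 days, adjusted p = 0.0193 from limma).

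The Actn1 probe gave normalized intensities of 1774, 2061, 2064, 860.9 and 636.3 in the TAB samples in the order of the days. Its sham intensities were 372.9, 396.0, 362.6, 442.3 and 421.0. Again no TAB value reached down to the sham values, which spanned a 1.22-fold range. Actn1 was 4.76-fold, 5.21-fold and 5.69-fold higher in TAB on days 3, 5 and 7, and 1.95-fold and 1.51-fold higher on days 14 and 28. The mean log2 ratio was 1.74 (SE 0.33, n = 5 days, adjusted p = 0.0265 from limma), a 3.34-fold difference. The second Actn1 probe read 993.6, 1105, 1090, 508.9 and 340.0 in TAB and between 199.9 and 275.0 in sham. Tested as a probe of its own, it had a mean log2 ratio of 1.63 (SE 0.28, n = 5 days, adjusted p = 0.0259 from limma). The log2 intensities of the 2 probes had a Pearson r of 0.990 over the 10 samples, which share their arrays.

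Tagln2 and Cnn2 encode transgelin 2 and calponin 2, the broadly expressed relatives of the smooth muscle proteins. Tagln2 read 5275, 6505, 5958, 4196 and 3474 in TAB against 2718, 1997, 2308, 2582 and 2494 in sham in the order of the days. The groups did not overlap, and the ratio exceeded the 1.36-fold range of the sham samples on each of the 5 days. Tagln2 was 2.06-fold higher on average, a mean log2 ratio of 1.04 (SE 0.20, n = 5 days, adjusted p = 0.0267 from limma). Cnn2 read 1914, 2297, 1927, 1124 and 947.4 in TAB and 915.7, 471.3, 760.4, 828.9 and 743.7 in sham. Its groups did not overlap either, but the TAB sample of day 28 lay only slightly above the sham sample of day 3. The Cnn2 ratio of 4.87-fold on day 5 combined the highest TAB value with a sham value well below the other 4 sham values. The mean log2 ratio of Cnn2 was 1.10 (SE 0.30, 95% interval 0.37 to 1.82), with an adjusted p of 0.0535 from limma, which missed the threshold of 0.05.

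Tpm4 encodes a tropomyosin of the cytoskeleton outside muscle. Its intensities were 2212, 2184, 2372, 1701 and 1557 in TAB and 1229, 905.8, 1213, 1577 and 1434 in sham. The first 4 TAB values lay above all sham values, and the TAB sample of day 28 fell just below the sham sample of day 14. The mean log2 ratio of Tpm4 was 0.66 (SE 0.21, 95% interval 0.15 to 1.17, adjusted p = 0.0764 from limma), and its ratio was 1.80-fold, 2.41-fold and 1.96-fold on the early days against 1.08-fold and 1.09-fold on days 14 and 28.

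Acta2, which encodes the smooth muscle actin that defines myofibroblasts, read higher in TAB than in sham on days 3, 5 and 7 and lower on days 14 and 28. Its intensities were 575.2, 583.9 and 618.7 in the TAB samples of days 3, 5 and 7, and 306.4 and 229.1 on days 14 and 28. The sham samples read 305.9, 242.7, 266.4, 360.6 and 329.2 in the order of the days. The 3 early TAB values thus lay above every sham value, the day 14 value lay among them and the day 28 value lay below all of them. Acta2 was 1.88-fold, 2.41-fold and 2.32-fold of sham on days 3, 5 and 7, and 0.850-fold and 0.696-fold on days 14 and 28. Over the days the log2 ratio of Acta2 averaged 0.53 (SE 0.32, 95% interval −0.24 to 1.30, adjusted p = 0.284 from limma), so that no average difference was shown. The contrast of early and late days did not pass either (adjusted p = 0.295 from limma). The detection p-value of the probe exceeded 0.05 on 2 TAB and 2 sham arrays.

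Myl9, the regulatory light chain of smooth muscle and nonmuscle myosin, had the same sign on each day as Acta2. It read 1665, 1818, 1717, 1233 and 1107 in TAB and 1144, 1067, 1021, 1448 and 1188 in sham. Its 3 early TAB values lay above all sham values and its late ones among them. The ratios were 1.46-fold, 1.70-fold and 1.68-fold on days 3, 5 and 7, and 0.852-fold and 0.932-fold on days 14 and 28. Averaged over the days, the log2 ratio of Myl9 was 0.35 (SE 0.19, 95% interval −0.13 to 0.82, adjusted p = 0.256 from limma).

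Myh11, the smooth muscle myosin heavy chain, is the member most restricted to mature smooth muscle. It read 1291, 769.2, 1307, 1383 and 1050 in TAB and 779.2, 1174, 1271, 1537 and 1556 in sham. The groups overlapped, no TAB value lay above the sham range, and the ratio did not exceed the 2.0-fold range of the sham samples on any day. Its ratio was above 1 on days 3 and 7, at 1.66-fold and 1.03-fold, and below 1 on the other days, the lowest being 0.655-fold on day 5, when 6 of the other members had their highest ratio. The mean log2 ratio of Myh11 was −0.11 (SE 0.22, 95% interval −0.64 to 0.41, adjusted p = 0.749 from limma), and its sign turned with median scaling alone and without day 5 or day 28.

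Tagln encodes transgelin (SM22), and no sham array found its spot. Its normalized intensities were 66.5, 73.0, 58.9, 14.4 and 20.7 in TAB and 6.84, 3.62, 5.00, 10.99 and 5.58 in sham, and the spot was found only on the TAB arrays of days 3, 5, 7 and 28. Since no sham array found it, the difference was taken as a bound, for which each array's sham value was the higher of the Tagln reading and the dimmest found spot. On days 5, 7 and 28 Tagln was then at least 10.99-fold, at least 4.15-fold and at least 2.55-fold higher in TAB. No fold is given for day 14, when neither array found the spot. On day 3 the sham reading of Tagln was itself the higher value. The measured ratio of 9.72-fold on that day rests on a reading below background and is no bound. The dimmest found spot lay between 1.72 and 14.2 over the arrays. It is no measured detection limit, so the bounds hold only against that spot. No bound is given over all 5 days, and the fit to the measured values, those below background included, gave an adjusted p of 0.0320 from limma. All TAB readings lay above all sham readings, although the detection p-value did not call the spot detected on any array.

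**Figure D2:**
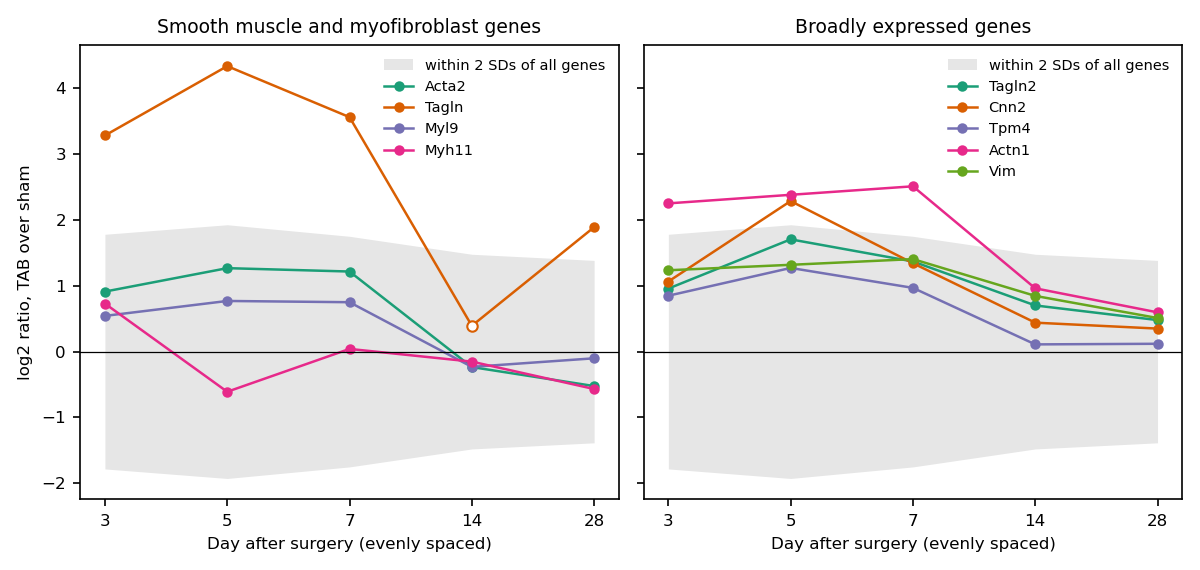
Log2 ratio of normalized intensity, TAB over sham, on each day for the smooth muscle and myofibroblast genes (left) and the broadly expressed genes (right), with the band of 2 SDs of all 16113 genes on that day in grey and an open point where neither array found the spot. Points outside the band belong to Tagln on days 3, 5, 7 and 28, to Actn1 on days 3, 5 and 7 and to Cnn2 on day 5, and the ratios of Acta2 and Myl9 fall below 0 on days 14 and 28.

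In the average over the days, 4 of the 9 tested members were called higher in TAB (Tagln, Tagln2, Vim and Actn1) and none lower, at an adjusted p under 0.05 from limma with day as a block. Among all 16113 genes, 9.19% were called higher and 7.87% lower. The median of the mean log2 ratios was 1.04 over the 9 members and −0.03 over all genes. At an unadjusted p under 0.05 from limma, 6 members were higher, the other 2 being Cnn2 and Tpm4, against 17.5% of all genes. None of the members was called without the samples of day 3, day 5 or day 7. The 2749 calls among all genes fell to 30, 98 and 22 in these fits. Without day 14 there were 3 calls among the members (Tagln, Vim and Actn1), and 3.51% of all genes were called higher. Without day 28 there were 5, Cnn2 being added, and 9.2% of all genes. When probes that 1 or more arrays did not find were left out, which removed Tagln, the calls were Tagln2, Cnn2, Tpm4, Vim and Actn1, and the share of genes called higher rose to 17.4% of the 11059 that were left.

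**Figure D3:**
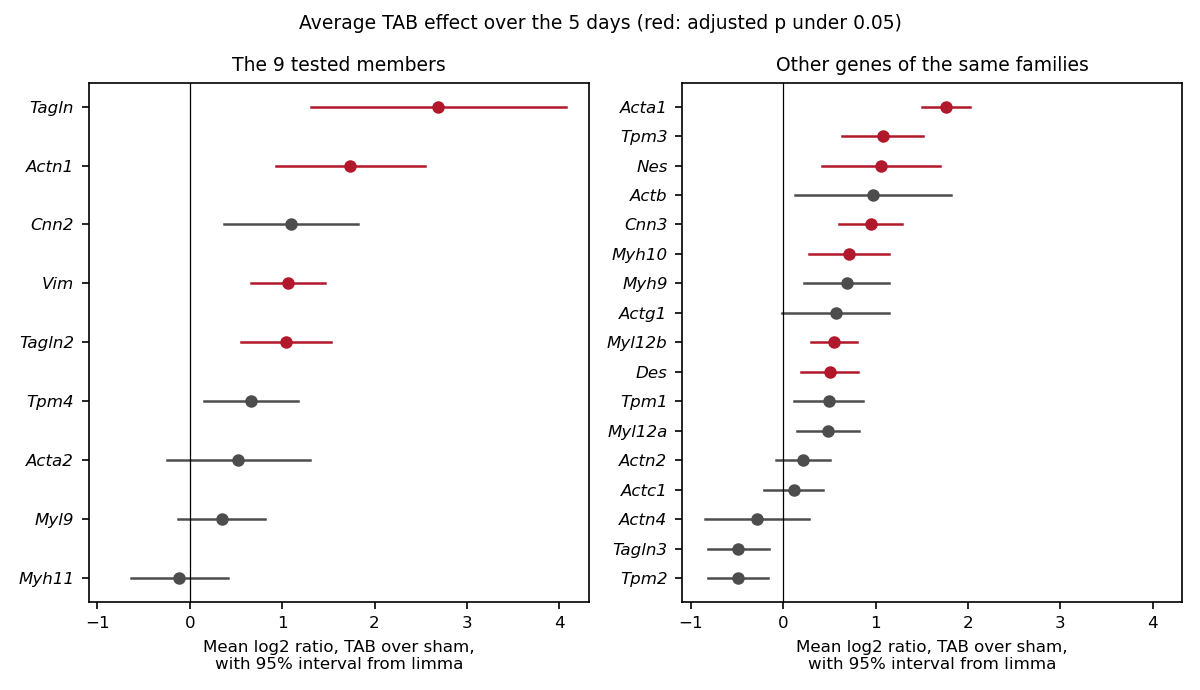
Mean log2 ratio of TAB over sham over the 5 days with its 95% interval from limma, for the 9 tested members (left) and for 17 other genes of the same protein families (right), red where the adjusted p was under 0.05. The intervals of Acta2, Myl9 and Myh11 include 0, and Acta1 has the highest mean log2 ratio of the relatives, 1.76.

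All 5 TAB values lay above all 5 sham values for 5 members (Tagln, Tagln2, Cnn2, Vim and Actn1) and for 9.99% of all genes. For Tagln this rests on readings below background, since no sham array and not the TAB array of day 14 found its spot. By the study's rule for a single day, a log2 ratio beyond 2 SDs of all genes, the numbers of the 9 members called higher were 2, 3, 2, 0 and 1 in the order of the days. Of all genes, 3.1%, 4.09%, 4.08%, 3.39% and 3.41% were called higher in the same order. The called members were Tagln and Actn1 on days 3, 5 and 7, Cnn2 on day 5 and Tagln on day 28, and no member was called lower on any day. At its bound, Tagln on day 28 stood at 1.35 on the log2 scale and no longer passed that day's limit of 1.38. Vim, whose sham values varied least, was past this limit on no day, since the limit lay between 1.38 and 1.93 on the log2 scale.

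The members peaked early. The highest ratio fell on day 5 for 6 members and on day 7 for Vim and Actn1, 8 of the 9 in all, whereas 36.8% of all genes had their highest ratio on day 5 or 7. Myh11 was the exception, with its highest ratio on day 3. The ratio was above 1 in 26 of 27 values of days 3, 5 and 7 and in 12 of 18 values of days 14 and 28. The median log2 ratio of the members was 0.96, 1.32 and 1.34 on days 3, 5 and 7 and 0.39 and 0.35 on days 14 and 28. Ratios that were all above 1 early and all below 1 late were seen for Acta2 and Myl9 and for 3% of all genes.

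The difference between the early days (3, 5 and 7) and the late days (14 and 28) was tested as a contrast in the same model. Acta2 had a mean log2 ratio of 1.13 early and −0.38 late, a difference of 1.51 (SE 0.23, unadjusted p = 0.0011, adjusted p = 0.295 from limma). Actn1 had 2.38 early and 0.78 late, a difference of 1.60 (SE 0.22, unadjusted p = 0.000743, adjusted p = 0.252 from limma). The difference was 0.85 for Myl9, 0.91 for Tpm4, 1.17 for Cnn2, 0.75 for Tagln2, 0.64 for Vim and 0.41 for Myh11, and the measured values of Tagln, partly below background, gave 2.58. At an unadjusted p under 0.05 from limma, 8 of the 9 members had a higher ratio on the early days, Myh11 being the other one, against 6.54% of all genes. In the lists described below, the same held for 9 of 21 other genes of the actin cytoskeleton and 4 of 5 macrophage markers. It held for 3 of 17 other genes of the same families and for none of 8 smooth muscle markers. A higher early ratio was thus not particular to the members. No member passed after adjustment, nor did any of the 16113 genes (lowest adjusted p = 0.191 from limma), of which 1766 had an unadjusted p under 0.05 in either direction. With trend and robust estimation Acta2 (adjusted p = 0.0343) and Actn1 (adjusted p = 0.0185 from limma) did pass, as did 34 genes in all.

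Of the pairs of a broadly expressed and a muscle-restricted relative, only Tagln2 and Tagln could be compared, because Cnn1 was not measured. On days 5, 7 and 28 the Tagln2 ratio was 3.26-fold, 2.58-fold and 1.39-fold, each below the bound of Tagln on that day. On day 3 the Tagln2 ratio was 1.94-fold, and Tagln had no bound. Tagln had bounds at most, and its detection p-value did not call it detected on any array. The order of the 2 genes is therefore not established, and no test of the pair is given. With 50 added to every intensity before log2 the mean difference of the measured log2 ratios changed sign.

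The other genes of the same families rose in part. Of 17 tested actins, transgelins, calponins, myosins, tropomyosins, intermediate filament proteins and alpha-actinins outside the members, 7 were called higher and none lower, with a median mean log2 ratio of 0.55. Actn4, counted among them, was found on no array. Acta1, the skeletal actin of the heart's fetal program, had a mean log2 ratio of 1.76 (SE 0.10, n = 5 days, adjusted p = 0.0043 from limma), with no difference shown between early and late days (0.01, unadjusted p = 0.949). Tpm3, a tropomyosin, stood at 1.08 (adjusted p = 0.0225) and Nes, the intermediate filament protein nestin, at 1.06 (adjusted p = 0.0435 from limma). The remaining calls, named after their values were seen, were Cnn3, Myh10, Myl12b and Des, at mean log2 ratios of 0.95, 0.72, 0.55 and 0.50. Cnn3 encodes the third calponin. Tpm2, a muscle tropomyosin, and Tagln3, also named after their values were seen, were each at −0.49 and did not pass.

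Among 21 other genes of the actin cytoskeleton, 10 were called higher and none lower, with a median mean log2 ratio of 0.66. Tmsb4x and Ezr, counted among them, were found on no array. Capg, which caps actin filaments in macrophages and other motile cells, stood at 1.91 (SE 0.18, adjusted p = 0.0116), and Tmsb10, a thymosin that binds actin monomers, at 1.24 (SE 0.14, adjusted p = 0.0129 from limma). Anln, the cytokinesis protein anillin, had 1.37 (SE 0.37, adjusted p = 0.0517). Of 12 genes of the SRF and MRTF pathway, 2 were called higher, with a median mean log2 ratio of 0.00042 over the list. The 2 called genes are not reported here, and 2 genes of the list were found on no array. The mRNA of Srf itself was at −0.03 (SE 0.17, adjusted p = 0.915), and that of its muscle coactivator Myocd at 0.04 (adjusted p = 0.869 from limma).

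Markers of the cell types in which the members are expressed moved beside them as follows. Of 8 tested smooth muscle markers, none was called higher and 1 lower, and their median mean log2 ratio was 0.05. Lmod1, counted among them, was found on no array. The called gene, Synpo2, an actin-bundling protein, was at −0.77 (SE 0.16, adjusted p = 0.0294 from limma), and Mylk, the kinase of the myosin light chain, and Ppp1r14a were at 0.31 and −0.24 (adjusted p = 0.0960 and 0.242). The summed intensity of these markers lay between 4099 and 5181 in TAB and between 4596 and 5222 in sham. Among 5 pericyte markers 2 were called higher (Cspg4 at 0.65 and Notch3 at 0.43) and none lower, while Abcc9 and Rgs5 were at −0.72 and −0.59 without passing.

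Activated fibroblast markers were higher beside the members. All 6 tested were called higher, with a median mean log2 ratio of 3.53, although the sham arrays did not all find 3 of them, and their summed intensity lay between 7914 and 23555 in TAB and between 1461 and 1652 in sham. Postn, the matrix protein periostin, was at 3.37 (SE 0.23, adjusted p = 0.0043), Fn1, fibronectin, at 2.80 (SE 0.39, adjusted p = 0.0167) and Fap at 1.23 (SE 0.15, adjusted p = 0.0153 from limma). All 5 macrophage markers were also called higher, with a median of 1.26 and a summed intensity between 2105 and 5131 in TAB and between 1337 and 1615 in sham. Cd68, a lysosomal protein of macrophages, was at 2.01, Emr1 at 1.45 and Itgam at 1.26. Of the 5 cell cycle genes 2 were called higher, Top2a and Ccna2, which were found on 1 and 3 of the sham arrays. The list's median of 2.03 was the value of Mki67, which no sham array found, and among the genes found on all arrays Birc5 was at 1.36 (adjusted p = 0.0562) and Ccnb1 at 0.08 (adjusted p = 0.933 from limma). What part these cells had in the members' ratios was not tested.

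**Figure D4:**
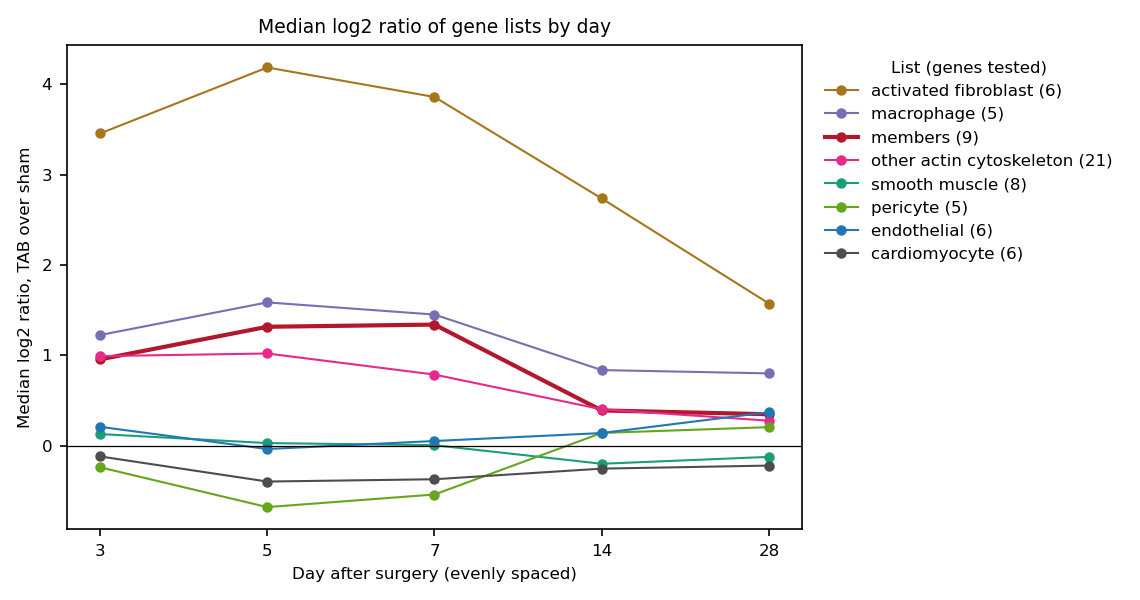
Median log2 ratio, TAB over sham, of 8 gene lists on each day after surgery, with the number of tested genes of each list in the legend and the 9 members as the thick red line. The activated fibroblast and macrophage lists lie above the members on all 5 days and peak on day 5, whereas the smooth muscle, endothelial and cardiomyocyte lists stay within 0.5 of 0.

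Of the lists of other cells, only that of resting fibroblasts held a called gene. Among 5 resting fibroblast markers Lum was called higher, at 0.59 (adjusted p = 0.0328 from limma), and the median was 0.24. Dcn was at 0.26 (adjusted p = 0.119) and Gsn on the other side of 0, at −0.54 (adjusted p = 0.148 from limma), and neither passed. None of the 6 endothelial markers was called in either direction (median 0.10), nor of the 6 cardiomyocyte genes (median −0.25), the 3 epicardial markers (median −0.32) or the 3 atrial genes (median −0.81). The endothelial genes Cdh5, Kdr and Pecam1 were at 0.34, 0.21 and 0.11, the cardiomyocyte genes Tnni3, Ryr2 and Pln at −0.44, −0.36 and −0.36, and the epicardial gene Wt1 at 0.21. On day 14 the atrial genes had a median log2 ratio of −2.24, with Sln at −2.76, Myl7 at −2.24 and Myl4 at −1.56, and the members' day 14 ratios came from the same 2 samples. Whether the amount of atrial tissue bore on those ratios was not tested.

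Over the 10 samples, the genes whose log2 intensity followed a member most closely were ranked by Pearson r among 10534 other genes found on all arrays. Points of the same operation share a treatment, and the values are a description. For Acta2 they were Hax1 (r = 0.983), Fem1c (0.980) and Cd24a (0.973), and Myl9 ranked 7th with 0.959. For Vim they were Tmem43 (0.995), Clec4n (0.994) and Csrp2 (0.994), and Actn1 ranked 23rd with 0.985. For Tpm4 they were Acsl5 (0.990), St6galnac4 (0.987) and Spred1 (0.981), and Cnn2 ranked 33rd with 0.942. For Myh11 they were a gene listed as AW146154|AI987944 (0.923), Gcfc1 (0.920) and Sh3glb1 (0.903), while its r with the other 7 members found on all arrays lay between −0.28, with Cnn2, and 0.01, with Tpm4.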

How the data were processed

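The authors extracted total RNA of the left ventricle, labelled it with Cy5 and hybridized it to single-colour arrays. The paper states that repeated data of a sample were averaged, and the deposited data hold 1 array per sample. They deposited the raw intensity of each probe, with a background subtracted by a method not given in the sources used here and no scaling between arrays, a detection p-value of unstated computation, and a flag score of −50 or 0, read here as a spot not found or found. The p-value and flag made no call of a difference.

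The 10 arrays were scaled to a common median, 6447 probes below 1 in any sample were removed and 19976 were kept. These were quantile normalized over all samples to the median of each rank and put on the log2 scale. Where a gene had several probes, the one whose absolute log2 ratios added up highest over the 5 days stood for it, which gave 16113 genes. The 3633 probes that carry no symbol took no part in gene counts. limma 3.58.1 in R 4.3.3 (lmFit and eBayes, trend and robust off) fitted all genes, with a term for the day as block and p-values adjusted after Benjamini-Hochberg, and its code was tested on simulated data. Values and figures were made with Python 3.11.15, numpy 2.4.6, pandas 2.3.3, scipy 1.17.1 and matplotlib 3.10.9.

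TAB and sham samples were paired by day, as in the study's ratios. Across genes, how far the paired samples deviated from their own group's mean correlated with r = 0.113, −0.0165, 0.0065, 0.00292 and 0.014 in the order of the days.

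The members and the 13 further lists were chosen with earlier results of these data known. Named were all members, from each list those of the genes found on all arrays whose mean log2 ratio lay farthest from 0 (at most 3), and the 3 genes most like Acta2, Myh11, Vim and Tpm4. Other list genes are named for their role or to account for a count, after their values were seen, and some of the SRF and MRTF list are not reported here. Alternatives were other normalizations, filters, probe rules, 50 added before log2, no block, trend and robust estimation, every probe tested, another limit for single days and each day left out. The number of arrays limits the precision.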

Additional observations from a re-analysis of the deposited data

Results flagged for a closer look

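The TAB over sham ratios of Acta2 and Myl9 were above 1 on each of days 3, 5 and 7 and below 1 on each of days 14 and 28, which put every early value on the other side of every late one. The early minus late difference of the log2 ratio was 1.51 for Acta2 (adjusted p = 0.295 from limma) and 0.853 for Myl9 (adjusted p = 0.394 from limma). Neither passed the adjustment. No value stood apart from the other 4 of its group by Dixon's limit of 0.71 in the 27 groups of 5 values checked.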

How the results depend on the processing

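The number of members called in the average over the days was 4, between 4 and 6 under 11 of the 12 alternatives that kept all days, and 1 (Vim) with probes below 1 set to 1. The calls over all genes moved too. In the main fit 1481 of 16113 genes were called higher, against 2242 of 16113 with 50 added before log2 and 459 of 19942 with probes below 1 set to 1. Leaving out a day gave 0 to 5. Without the replicate block 6 members were called, Cnn2 (adjusted p = 0.0191) and Tpm4 (adjusted p = 0.0243 from limma) being added, and calls over all genes rose from 2749 to 3598. The early against late count of 0 became 1 when probes not found on any 1 array were left out (Actn1) and 2 with trend and robust estimation (Acta2 and Actn1), and stayed 0 without each day. The 8 calls on single days became 17 with 50 added before log2, 5 without the dimmest tertile of genes and 18 at a fixed log2 ratio of 1, and 5 to 8 with a day left out. The share of all genes called is not given for these alternatives, so these counts do not compare the members with other genes. Members whose groups did not overlap numbered 4 to 6 throughout, and 5 to 6 with a day left out. The measured log2 ratio of Tagln2 minus that of Tagln, −1.65 with Tagln readings below background included, turned to 0.30 with 50 added and lay between −2.14 and −1.40 with a day left out, and it had no value where dim probes were left out. The fitted values of Tagln, which rest on sham readings below background and are no effect sizes, moved with 50 added from 2.69 to 0.73 for the mean log2 ratio and from 2.58 to 0.86 for the early minus late difference. With probes below 1 set to 1, Acta2 was read from its second probe, found on no array, and these values rose from 0.53 to 1.56 and from 1.51 to 3.13. The mean log2 ratio of Myh11 turned to 0.018 with median scaling only, 0.012 without day 5 and 0.0019 without day 28. Of the 20 fits of the 4 called members with a day left out, 13 no longer called them. The adjusted p of the 4 called members then ranged from 0.0424 to 0.103 for Tagln, 0.0271 to 0.0926 for Tagln2, 0.0175 to 0.0782 for Vim and 0.0208 to 0.0890 for Actn1 (limma). Signal over background limits Tagln, Cnn1 and, on 4 arrays, Acta2.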
